A study of Homo sapiens with 6 samples.

Results

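A set of 7 genes that glands and mucosal surfaces use for secretion or at the cell surface, PRR4, MUCL1, ZG16B, DMBT1, FCGBP, CLCA2 and VSIG1, were followed in PC3 cells carrying a GRK3 transgene. They were picked by gene symbol, and the choice was made from the same contrast that is described here, GRK3 against GFP, so their differences are given as a description with no test. Of 16922 named genes on the array, the 7 are read by 8 of its 24526 probes, 1 probe for each of 6 genes and 2 for FCGBP. PC3 is an established human prostate cancer cell line of epithelial origin. GRK3 cells, whose transgene encodes a kinase of activated G protein-coupled receptors, are represented by 3 arrays, and GFP cells, the control, whose transgene encodes a fluorescent protein, by 3 arrays. All cells were grown in RPMI medium with fetal bovine serum and antibiotics. The labels state neither the promoter of the transgenes nor whether a population was a pool or a clone, so no difference between the groups can be assigned to the transgene alone.

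Mucosal surfaces are covered by a gel of mucins and of proteins bound to them, which goblet cells, submucosal glands and salivary or lacrimal glands release. Mucins are folded and linked in the endoplasmic reticulum, receive O-linked sugars in the Golgi and are packed into granules. Ion channels of the apical membrane set how much water the gel takes up. Forkhead factors, ETS factors such as SPDEF and KLF factors direct secretory cell fates in several of these epithelia.

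The promoters are shown because these genes were picked together from the same contrast, and a core element can be read directly from the letters. A common cause of the differences was not tested. Of the 7 genes, 6 had a promoter sequence in the RefSeq table for GRCh38.p14, and the 250 bases upstream of the start that this table uses were searched on both strands. For MUCL1 that start lies inside the gene's annotated span, whereas for the other 5 it is at the edge of the span. The 4 sequences printed here are the 3 with the letters TATAAA close to the start, and MUCL1, shown beside them because it, like FCGBP, matched none of the motifs searched. Only exact letters were searched, so a near variant such as tatatat, which MUCL1 has close to the start, was not counted. Each runs 5′ to 3′ along the gene's own strand, and capitals mark TATAAA on that strand.
PRR4, chr12:10849476-10849725, minus strand: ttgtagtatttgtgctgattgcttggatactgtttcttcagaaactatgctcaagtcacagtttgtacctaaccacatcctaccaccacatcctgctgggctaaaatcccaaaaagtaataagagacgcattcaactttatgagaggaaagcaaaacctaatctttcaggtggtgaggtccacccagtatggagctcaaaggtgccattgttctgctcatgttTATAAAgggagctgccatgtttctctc
ZG16B, chr16:2830053-2830302, plus strand: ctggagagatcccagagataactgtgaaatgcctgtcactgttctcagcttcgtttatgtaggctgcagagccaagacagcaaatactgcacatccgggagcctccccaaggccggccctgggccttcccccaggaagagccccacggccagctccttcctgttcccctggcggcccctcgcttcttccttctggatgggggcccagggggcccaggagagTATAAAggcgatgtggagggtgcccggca
DMBT1, chr10:122560504-122560753, plus strand: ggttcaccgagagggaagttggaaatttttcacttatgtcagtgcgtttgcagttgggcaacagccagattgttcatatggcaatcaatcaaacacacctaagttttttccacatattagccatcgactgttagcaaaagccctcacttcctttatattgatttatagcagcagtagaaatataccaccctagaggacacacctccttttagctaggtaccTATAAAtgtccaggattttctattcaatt
MUCL1, chr12:54854266-54854515, plus strand: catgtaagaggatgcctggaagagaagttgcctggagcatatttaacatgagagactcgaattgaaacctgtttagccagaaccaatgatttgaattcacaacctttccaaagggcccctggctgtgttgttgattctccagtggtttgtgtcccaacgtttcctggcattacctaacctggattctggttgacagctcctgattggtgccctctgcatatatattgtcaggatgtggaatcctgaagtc

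TATAAA began 27 bases upstream of the start in PRR4 and 29 bases upstream in both ZG16B and DMBT1. In CLCA2 it began 200 bases upstream. A match on the gene's strand that begins 35 to 20 bases upstream, a window set after these positions were seen, was present in 3 of the 6 promoters and in 2.21% of 35116 promoters of the same length. On either strand and anywhere in the 250 bases, TATAAA was in 4 of 6, and in 10.7% of all promoters. The ETS letters AGGAAG were in ZG16B, CLCA2 and DMBT1, against 28.7% of all promoters. In PRR4 the TATAAA matches of both strands overlapped, and in DMBT1 an ETS match overlapped a TATAAA match of the other strand. The AP-1 letters TGANTCA were in CLCA2 alone (6.57% of all) and the GATA letters AGATAA in ZG16B alone (9.17%). The forkhead letters TNTTTAC, the KLF letters CCNCACCC and the E-box CACGTG were in 0 of the 6, against 9.58%, 16.7% and 6.34% of all promoters. The GC content was 42.4% in PRR4, 45.6% in MUCL1, 44.8% in CLCA2 and 39.6% in DMBT1. It was 61.6% in ZG16B and 60.8% in FCGBP, against a median of 58.0% over all promoters. The shares of all promoters are not matched for GC content. A match describes letters in this window and not a bound site.

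Mean signal per array lay between 1171 and 1387 units, and 13780 to 14363 probes per array were detected. A probe counts as detected where its deposited detection p-value, its rank among negative control probes, is under 0.05, and testing was limited to the 14130 probes with detection on 3 or more of the 6 arrays. All 5 epithelial markers (KRT8, KRT18, KRT19, EPCAM and CDH1) were detected on all 6 arrays, while the prostate luminal markers KLK3, TMPRSS2 and ACP3 were detected on 0 and KLK2 on 1. Of the markers of other cell types, PTPRC, CD3E, ITGAM, VWF, CDH5, KDR, COL1A2 and DCN were detected on 0 arrays, PDGFRB on 2, CD14 on 5, and PECAM1, CD68, ACTA2, LUM and COL1A1 on 6. The summed linear level of the 4 endothelial markers was 966 to 1029.5 on the GRK3 arrays and 824 to 962 on the GFP arrays, most of it PECAM1 (limma adjusted p = 0.462), and its part in the results was not tested. The 1 probe named for GRK3 was not detected on any array (detection p-values from 0.104 to 0.262), so it does not check the labels.

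All 8 probes passed the detection filter, 5 of them with detection on all 6 arrays. On 6 of the 8 probes the groups did not overlap, with GRK3 the higher, against 1130 of the 14130 tested probes higher without overlap and 16.4% without overlap in either direction, and 5 of the 8 were among the probes called higher with limma, which were 0.375% of those tested. Both counts follow from how the genes were picked, and nothing is read from them. The other two probes, that of DMBT1 and 1 of FCGBP, overlapped between the groups, and this second FCGBP probe was lower on average in GRK3 cells. The description as higher in GRK3 cells therefore holds for PRR4, MUCL1, ZG16B, VSIG1 and CLCA2 on every array, while for DMBT1 it depends on the array and for FCGBP on the probe. In RNA from whole cultures, more expressing cells and more RNA per cell cannot be told apart.

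**Figure D1:**
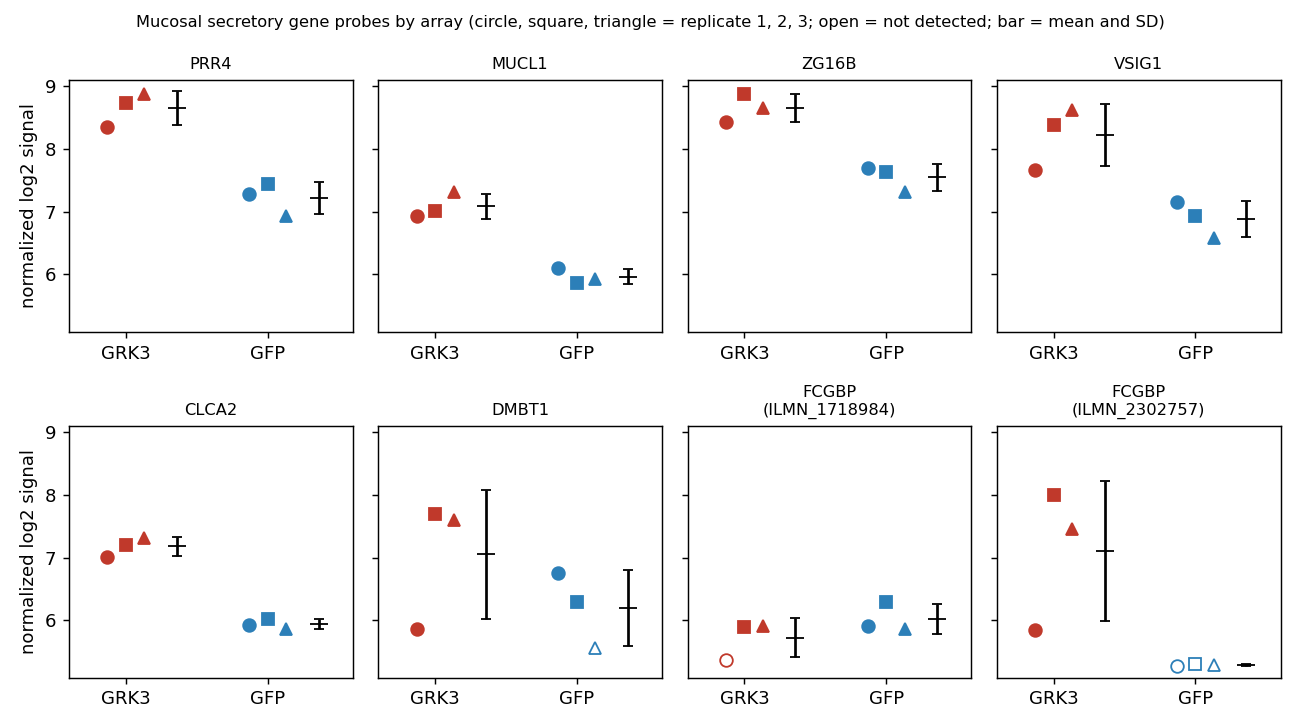
Normalized log2 signal of each of the 8 probes (vertical axis) on the 3 GRK3 arrays and the 3 GFP arrays (horizontal axis). Circles, squares and triangles are replicates 1, 2 and 3, open symbols were not detected, and the black mark is the group mean with its SD. PRR4, MUCL1, ZG16B, VSIG1 and CLCA2 do not overlap between the groups, GRK3 replicate 1 of DMBT1 lies among the GFP arrays, and 1 FCGBP probe is detected only on GRK3 arrays.

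The 3 genes for small secreted gland proteins were each separated on all arrays. PRR4 encodes a proline-rich protein of tears and saliva and lies on chromosome 12. Its normalized log2 signal was 8.35, 8.73 and 8.87 on GRK3 arrays 1 to 3, and 7.28, 7.44 and 6.93 on GFP arrays 1 to 3. The lowest GRK3 array stood 0.91 above the highest GFP array, and the mean difference was 1.44 ± 0.16 (SE) on the log2 scale, a 2.70-fold difference.

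MUCL1, on chromosome 12, encodes a small mucin-like glycoprotein known from breast epithelium. It had 6.93, 7.01 and 7.31 on the GRK3 arrays, against 6.10, 5.87 and 5.92 on the GFP arrays (normalized log2 signal). All GFP values were just above the lowest detected signals, which were 5.71 to 5.76 on those arrays. The difference was 1.12 ± 0.12 (SE), 2.18-fold, and it was 0.72 without background correction and 0.71 in the authors' value table.

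ZG16B, on chromosome 16, encodes a secreted lectin-like protein of exocrine glands. Its log2 signal was 8.43, 8.88 and 8.66 on GRK3 arrays and 7.71, 7.64 and 7.31 on GFP arrays. The difference was 1.10 ± 0.14 (SE), 2.15-fold, and the gap between the nearest arrays of the groups was 0.72.

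Of the membrane proteins, CLCA2 had the tightest replicates. CLCA2, on chromosome 1, belongs to a family of secreted or membrane-anchored regulators of calcium-activated chloride channels. Its log2 signal was 7.02, 7.21 and 7.32 on GRK3 arrays and 5.92, 6.02 and 5.87 on GFP arrays. These GFP values were all just above the lowest detected signals of those arrays, 5.71 to 5.76. The difference of 1.24 ± 0.10 (SE), 2.37-fold, was 10.2 times the within-group SD of 0.12, the highest such ratio among the 8 probes. Without background correction the difference was 0.80, and in the authors' value table it was 0.79.

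VSIG1, on chromosome X, encodes a junctional adhesion protein of the immunoglobulin superfamily found in stomach epithelium. It had 7.67, 8.39 and 8.62 on GRK3 arrays, against 7.15, 6.93 and 6.58 on GFP arrays (log2 signal). The groups did not overlap, but GRK3 replicate 1 was only 0.52 above the highest GFP array. The difference was 1.34 ± 0.23 (SE), 3.30 times the within-group SD of 0.41.

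The remaining genes belong to mucosal defence. DMBT1, on chromosome 10, encodes a large glycoprotein with scavenger receptor domains that binds bacteria in saliva and mucus. Its log2 signal was 5.86, 7.69 and 7.59 on GRK3 arrays, and 6.75, 6.29 and 5.55 on GFP arrays, the lowest of which was not detected. GRK3 replicates 2 and 3 were above every GFP array, and GRK3 replicate 1 was below GFP replicates 1 and 2. The mean difference of 0.85 ± 0.45 (SE) was 1.01 times the within-group SD of 0.84. Leaving out GRK3 replicate 1 gave 1.45, and leaving out GRK3 replicate 2 or GFP replicate 3 gave 0.53.

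FCGBP, on chromosome 19, encodes a mucus protein of goblet cells first known for binding the Fc part of IgG. Probe ILMN_2302757 had a log2 signal of 5.85, 7.996 and 7.46 on GRK3 arrays and of 5.27, 5.31 and 5.29 on GFP arrays, where it was detected on 0 of 3. It therefore passed the detection filter only through the GRK3 arrays. By the mean of those arrays it was at least 2.57-fold higher in GRK3 cells under the reported background correction and offset. For this the GFP side was set at the lowest detected signal of each array, 5.71 to 5.76. GRK3 replicate 1, at 5.85, was just above those signals, so the bound does not hold for each array. The bound depends on that processing and on the arrays. The difference between the measured means, 1.81 on the log2 scale, was 1.28 with an offset of 50 and 1.33 without background correction. With 1 array left out it ran from 1.36 to 2.45, the highest being without GRK3 replicate 1. Probe ILMN_1718984 had 5.37, 5.89 and 5.91 on GRK3 arrays and 5.91, 6.29 and 5.87 on GFP arrays, a difference of -0.30 ± 0.17 (SE) close to background. It was -0.12 without GRK3 replicate 1, -0.16 without GFP replicate 2 and -0.19 with an offset of 50. Both probes carry the same RefSeq accession in the platform annotation, and no source used here places them on the transcript. The 2 probes thus give opposite signs for 1 gene, and GRK3 replicate 1 was the lowest GRK3 array on both.

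**Figure D2:**
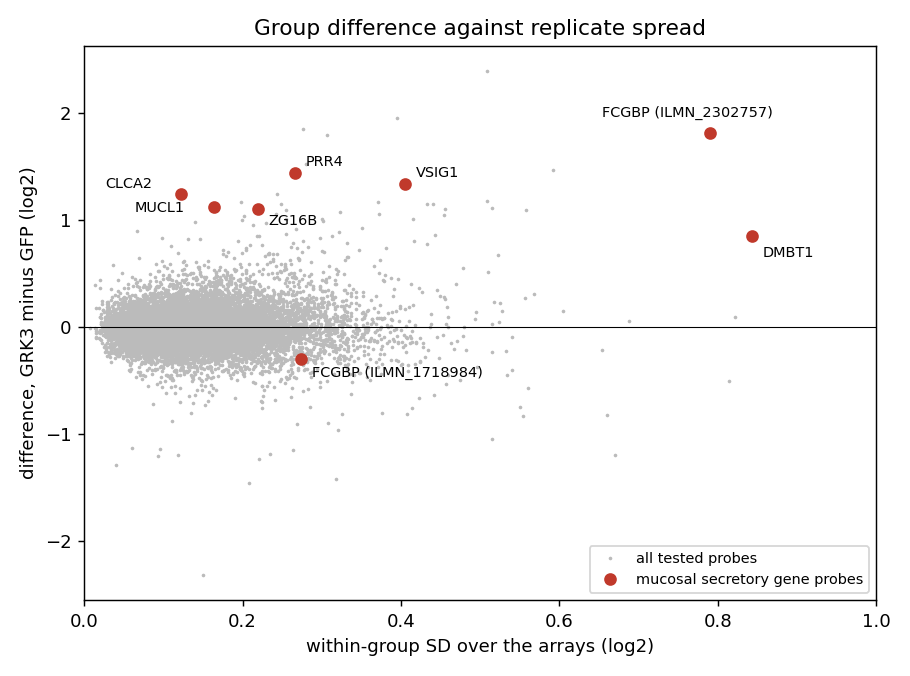
Difference between the group means, GRK3 minus GFP (vertical axis, log2), against the within-group SD (horizontal axis, log2) for every tested probe (grey) and for the 8 probes of the mucosal secretory genes (red). Of the tested probes, 2 lie beyond the right edge at an SD over 1. CLCA2, MUCL1, ZG16B and PRR4 combine a difference above 1.10 with an SD of at most 0.27, whereas DMBT1 and FCGBP ILMN_2302757 have SDs of 0.84 and 0.79.

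The replicate spread varied widely among the 8 probes, and is given as a description, since the genes were chosen on the same arrays. Against the tested probes within 0.5 of the same mean log2 level, the within-group SD of CLCA2 lay at the 22.6th percentile and that of MUCL1 at the 47.8th. PRR4 lay at the 92.7th, FCGBP ILMN_1718984 at the 91.8th and ZG16B at the 84.1st percentile. VSIG1 was at 99.1%, FCGBP ILMN_2302757 at 99.9%, and DMBT1 had the widest spread of the 2090 probes at its level.

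The spread ran in the same direction from gene to gene. On GRK3 replicate 1, 0 of the 8 probes were above their own group mean, with a median deviation of -0.33 on the log2 scale, while 49.9% of all tested probes were above theirs. On GRK3 replicate 2 the count was 7 of 8 and on GRK3 replicate 3 it was 8 of 8. In the GFP group, 5 of 8 were above on replicate 1, 7 of 8 on replicate 2 and 1 of 8 on replicate 3. The deviations of 3 replicates sum to 0 within each group, so these counts are linked.

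Along the main axis of within-group variation over all tested probes, which held 48.3% of that variation, GRK3 replicate 1 scored 0.63 and GFP replicate 3 scored 0.44. GRK3 replicate 3, at -0.45, and GFP replicate 1, at -0.43, lay at the other end. The weights of the 8 probes on this axis all fell in the lowest 16.2% of tested probes, that is, on the side low in GRK3 replicate 1 and GFP replicate 3. DMBT1 had the lowest weight of the 14130 probes, and VSIG1 and FCGBP ILMN_2302757 were in the lowest 0.17% and 0.042%. The axis was taken from unscaled deviations, so probes with a wide within-group SD, such as these, can have the most extreme weights. These ranks therefore partly restate the SDs. The part of this axis in the group differences was not tested. Without GRK3 replicate 1 the median difference over the 7 genes was 1.45, against 1.24 with all arrays, with FCGBP read by ILMN_2302757, its brighter probe. With all arrays and the mean of its 2 probes it was 1.12.

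**Figure D3:**
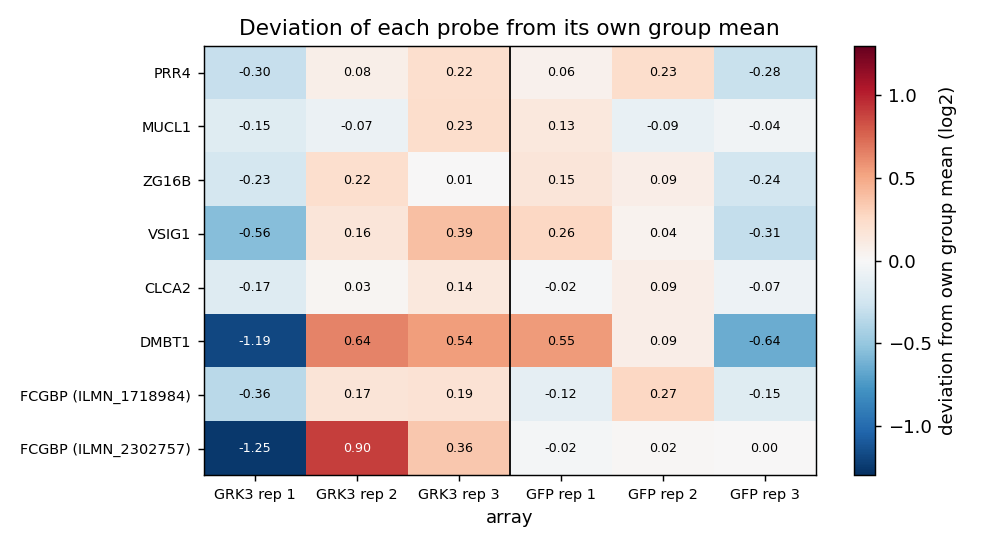
Deviation of each of the 8 probes (rows) from its own group mean on each array (columns, GRK3 left of GFP), in log2 units, with blue below and red above the mean. The column of GRK3 replicate 1 is below 0 in all 8 rows, reaching -1.25 for FCGBP ILMN_2302757 and -1.19 for DMBT1.

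By the mean absolute difference of standardized profiles over the 6 arrays, the named genes nearest to the mean profile of the 8 probes were NLRP10 (0.155), PDE5A (0.159), TRIM2 (0.159), SHISA3 (0.160) and BDNF (0.160). This measure ignores the size of the change: SHISA3 averaged 8.83 ± 0.57 on GRK3 arrays and 7.65 ± 0.43 on GFP arrays, while NLRP10, whose GFP values were all below the lowest detected signals of those arrays, averaged 5.84 ± 0.08 on GRK3 arrays and 5.65 ± 0.04 on GFP arrays (log2 signal, SD, n = 3 each). Of the 8 probes themselves, VSIG1 was nearest to that profile (0.188) and FCGBP ILMN_1718984 farthest (1.14).

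Other genes of mucus and gland secretion were taken from 8 lists, 216 genes in all, of which 188 had a named probe and 86 were tested. Of these 86, AGR2, CEACAM6 and TCN1 rose, KLF6 fell and 82 did not pass (limma adjusted p under 0.05 over all tested probes; CEACAM6 was detected on GRK3 arrays only), against 0.652% called among all named genes tested. The median difference over the 86 genes was 0.06, against -0.0024 over all named genes. At an unadjusted p under 0.05 the limma fit had 21 higher and 5 lower among the 86, or 30.2%, and 683 higher and 509 lower, or 11.3%, among the 10586 named genes. Of the higher list genes, CEACAM5, CEACAM6 and DEFB1 were detected on GRK3 arrays only. They entered the test only through the arrays where they are high, so they are no independent support for a rise. The lists themselves were chosen with earlier results of these data known, so the share of 30.2% is no independent support either.

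**Figure D4:**
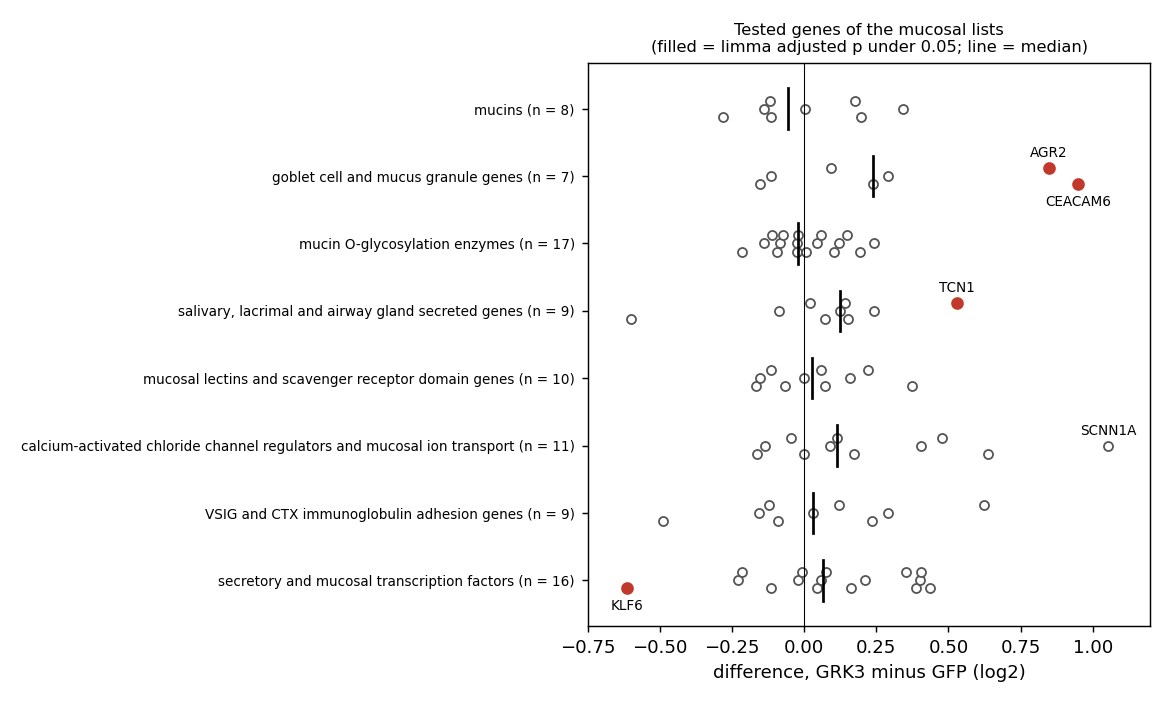
Difference between GRK3 and GFP (horizontal axis, log2, GRK3 minus GFP) of each tested gene in the 8 lists (rows). Filled points had a limma adjusted p under 0.05, open points did not, and the vertical line in each row is the list's median. AGR2, CEACAM6 and TCN1 are filled to the right of 0 and KLF6 to the left, and the open point farthest right is SCNN1A at 1.05.

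Of 7 tested goblet cell and mucus granule genes, 2 rose and 5 did not pass, with a median difference of 0.24. The gene at that median, CEACAM5, was detected on GRK3 arrays only, so it entered the test only through those arrays. The median is therefore no independent support for a rise of the list. AGR2 is a disulfide isomerase of the endoplasmic reticulum that mucin folding needs. Its log2 signal was 9.13, 9.48 and 9.57 on GRK3 arrays and 8.77, 8.48 and 8.38 on GFP arrays. The groups of AGR2 did not overlap, and the increase was 0.85 ± 0.14 (SE, limma adjusted p = 0.0381). CEACAM6, a cell adhesion glycoprotein of mucosal surfaces, had 6.13, 6.65 and 6.58 on GRK3 arrays and 5.53, 5.59 and 5.39 on GFP arrays, where it was detected on 0 of 3. It therefore entered the test only through the GRK3 arrays, where it is high, so its call is no independent support for a rise of the list. With the GFP side set at the lowest detected signals, the mean of the GRK3 arrays was at least 1.64-fold higher under the reported background correction. The limma adjusted p of CEACAM6 was 0.0182, and 0.0824 with no filter on low values. Between the measured means the log2 difference was 0.95, and it was 0.62 with an offset of 50 and 0.65 without background correction. SYTL2, a granule docking protein, and the sulfhydryl oxidase gene QSOX1 had differences of 0.29 and -0.11 (limma adjusted p = 0.244 and 0.734). The trefoil factor genes TFF1 and TFF3 had a probe but did not pass the detection filter.

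Of 9 tested salivary, lacrimal and airway gland genes, 1 rose and 8 did not pass, with a median difference of 0.13. TCN1, a vitamin B12-binding protein of saliva and granules, averaged 13.88 ± 0.08 on GRK3 arrays and 13.35 ± 0.10 on GFP arrays (log2 signal, SD, n = 3 each). The increase was 0.53 ± 0.09 (SE, limma adjusted p = 0.0497). LCN2, an iron-siderophore binding protein, averaged 12.94 ± 0.30 on GRK3 arrays and 13.54 ± 0.25 on GFP arrays, a difference of -0.60 with a limma adjusted p of 0.182. The protease inhibitor gene SLPI had a difference of 0.14 (95% interval from -0.18 to 0.46). PIGR, the receptor that carries antibodies into mucus, and PIP, a secreted gland protein, did not pass the detection filter.

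Among 16 secretory and mucosal transcription factors, 1 fell, 0 rose and 15 did not pass, with a median difference of 0.07. KLF6 had a log2 signal of 11.60, 11.73 and 11.52 on GRK3 arrays and of 12.11, 12.26 and 12.30 on GFP arrays. Its difference was -0.61 ± 0.10 (SE, limma adjusted p = 0.0318). FOXA1, FOXA2 and SPDEF, factors of gland and secretory epithelia, had differences of 0.40, 0.39 and 0.41 with limma adjusted p-values of 0.206, 0.417 and 0.3, and GRHL1 had a difference of 0.44 (0.406). The 95% interval of the difference was -0.19 to 0.51 for ELF3, -0.45 to 0.02 for KLF4 and -0.18 to 0.34 for XBP1.

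In the other 5 lists no gene passed with limma. Their counts at an unadjusted limma p under 0.05 stand beside 11.3% of all named genes tested. At that p the goblet cell list had 4 higher and 0 lower, the gland list 2 and 1, and the transcription factor list 5 and 1. Nothing is read from these counts, since the lists were chosen with earlier results of these data known. Of 8 tested mucins and mucin-like genes, 1 was higher and 1 lower at an unadjusted p under 0.05, and the list's median was -0.06. MUC1, the transmembrane mucin, averaged 7.40 ± 0.26 on GRK3 arrays and 7.06 ± 0.13 on GFP arrays, a difference of 0.34 (limma adjusted p = 0.365). MUC4 and MUC16, also anchored in the membrane, had 95% intervals of -0.29 to 0.29 and -0.15 to 0.50. MUC13 and MUC20 did not pass the detection filter, and MUC5AC and MUC5B had no probe named here. Of 17 mucin O-glycosylation enzymes, 0 were higher and 1, FUT1, lower at an unadjusted p under 0.05, with a list median of -0.02. FUT1, a fucosyltransferase, had a difference of -0.22 and ST3GAL1, a sialyltransferase, a difference of 0.24 (limma adjusted p = 0.376 and 0.452).

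Of 11 channel and ion transport genes, 4 were higher and 0 lower at an unadjusted p under 0.05 (11.3% among all named genes). The list's median was 0.11. SCNN1A, the alpha subunit of the epithelial sodium channel, had the largest difference of the 86 tested list genes. Its log2 signal was 10.48, 11.32 and 11.18 on GRK3 arrays and 10.17, 10.01 and 9.65 on GFP arrays, which do not overlap. The difference of SCNN1A was 1.05 ± 0.21 (SE, limma adjusted p = 0.0743). SCNN1G, the gamma subunit, had a difference of 0.64 (limma adjusted p = 0.113). The chloride channel gene ANO1 and the chloride cotransporter gene SLC12A2 had differences of 0.48 and 0.41 (limma adjusted p = 0.279 and 0.238). CLCA1 and CLCA4, relatives of CLCA2, did not pass the detection filter.

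Of 9 immunoglobulin adhesion genes related to VSIG1, 3 were higher and 1 lower at an unadjusted p under 0.05 (11.3% among all named genes). The list's median was 0.03. CXADR, a junction protein and virus receptor, had a difference of 0.62 and CLMP one of -0.49 (limma adjusted p = 0.231 and 0.402). MPZL2 and VSIG10 had differences of 0.29 and -0.09 (limma adjusted p = 0.28 and 0.834), and VSIG2 and GPA33 did not pass the detection filter. Of 10 lectin, scavenger receptor domain and related genes, 2 were higher and 0 lower at an unadjusted p under 0.05, again with a median of 0.03. LGALS3, which binds mucin sugars, and LOXL1, a lysyl oxidase, had differences of 0.37 and 0.22 (limma adjusted p = 0.326 and 0.331), and LGALS3BP had a 95% interval from -0.22 to 0.22.

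The 4 calls among the list genes rested on most arrays. For AGR2 the limma adjusted p was 0.156 and 0.135 without GRK3 replicates 2 and 3, and 0.187 and 0.144 without GFP replicates 2 and 3. For CEACAM6 the limma adjusted p was 0.0967 and 0.0717 without GRK3 replicates 2 and 3, and 0.0851, 0.0978 and 0.0846 without GFP replicates 1, 2 and 3. For KLF6 it was 0.0823 and 0.137 without GRK3 replicates 2 and 3, and 0.0565, 0.173 and 0.143 without GFP replicates 1, 2 and 3. For TCN1 it was 0.175 and 0.198 without GRK3 replicates 2 and 3, and 0.1, 0.187 and 0.178 without GFP replicates 1, 2 and 3. Without GRK3 replicate 1 these 4 genes passed, and so did SCNN1A (0.00392), FOXA1 (0.0378) and LCN2 (0.0403). On the axis of within-group variation SCNN1A, AGR2, CEACAM6 and FOXA1 had weights in the lowest 0.368%, 2.80%, 4.76% and 9.33% of tested probes, the same end as the mucosal secretory genes, and TCN1, KLF6 and LCN2 were at the 18.3rd, 69.6th and 98.4th percentiles. The part of that axis in these differences was not tested.

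**Figure D5:**
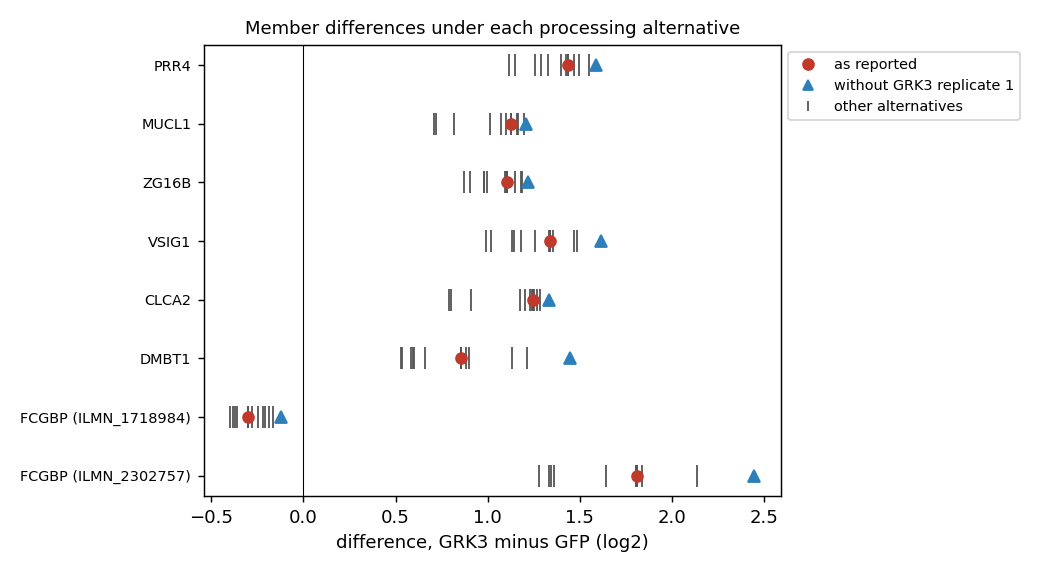
Difference between GRK3 and GFP (horizontal axis, log2, GRK3 minus GFP) of each of the 8 probes (rows) as reported (red), without GRK3 replicate 1 (blue triangle) and under the other processing alternatives (grey ticks). PRR4 ran from 1.12 to 1.59 and DMBT1 from 0.53 to 1.45, and no probe changed sign.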

How the data were processed

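RNA of PC3 cells was hybridized to 6 single-colour Illumina arrays, 3 per group by the labels' titles. The deposited table holds an average bead intensity per probe on a linear scale, not normalized per the file headers, and a deposited detection p-value. The authors' value table, also intensity, equals it times 1 factor per array, between 0.931 and 1.10 (99% of values within 0.0802%); its direction and linear scale follow from this, and its column medians were 131.6, 135.1, 135.8, 137.2, 140.2 and 140.7. The labels and headers do not name the software. Symbols came from the platform annotation: 21834 probes have 1 symbol, 2692 none and 0 several.

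Intensities were background-corrected from the detection p-values, then quantile-normalized and log2-transformed (neqc, offset 16, limma 3.58.1, R 4.3.3). Groups were compared with lmFit and eBayes, two-sided, without covariates, with Benjamini-Hochberg adjustment over 14130 probes, and the fit was tested on simulated data. A gene with several probes is read in the lists by its brightest tested probe. Members and lists were chosen with earlier results of these data known. Named list genes are those that passed, up to 3 per list by difference and by level, and a set fixed by name. The number of arrays limits precision, and p-values measure the spread between arrays, which may be technical. Alternatives covered background, offset, scaling, the authors' table, detection filters, an intensity trend, array weights, a replicate block, each array left out and the mean of a gene's probes.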

Additional observations from a re-analysis of the deposited data

How the results depend on the processing

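The 8 probes changed sign in 0 of the alternatives run, which the choice of the genes largely fixes, and the filters, the intensity trend and the replicate block cannot alter these differences. The median difference of the 7 genes, 1.24, was 0.90 without background correction and 0.87 in the authors' value table, and ran from 1.14 to 1.45 with 1 array left out. The count of 81 probes past the limma threshold was 134 without background correction, 122 with an offset of 50, 136 with an intensity trend, 239 with array weights, 23 with no filter on low values, and 23 to 183 with 1 array left out. The 4 list genes past the threshold were 0 with no filter on low values and 0 to 7 with 1 array left out. With no filter, 35 of 188 list genes had an unadjusted limma p under 0.05, against 26 of 86 as reported. The runs without GRK3 replicate 2 or 3 or GFP replicate 2 or 3 gave 0. They had 15 to 19 of 86 list genes at an unadjusted limma p under 0.05. The share of all genes at that p is not given for these runs or for the run with no filter, so nothing is read from these counts.

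With the replicate block, 11 probes and 0 list genes passed. In that run 18 of 86 list genes had an unadjusted limma p under 0.05, again without the share of all genes. Deviations of same-numbered arrays correlated at -0.41, 0.18 and -0.41. GRK3 replicates 1 and 3 correlated best with GFP replicates 3 and 1, and GRK3 replicate 2 with GFP replicate 2. The deviations sum to 0 within each group, so these correlations are linked and cannot settle whether the numbers pair the arrays. Signals near background limit MUCL1, CLCA2, FCGBP and CEACAM6, and DMBT1 on some arrays, and their fold changes depend on the background estimate. The differences of PRR4, ZG16B, VSIG1 and DMBT1 depend on it too. They were 1.15, 0.90, 1.02 and 0.60 without background correction, against 1.44, 1.10, 1.34 and 0.85 as reported.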
